A study of Rattus norvegicus with 16 samples.

Results

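Sterol and fatty acid synthesis genes were followed through the response of renal cells to an acidic medium. The members were chosen by name: 35 genes that encode the SREBP transcription factors and their regulators, the enzymes of cholesterol synthesis, a sterol transfer protein and the enzymes that make, elongate and desaturate fatty acids. All 35 were found by symbol among the 32623 genes of the count table, of which 22082 had a count in at least 1 library. SREBP precursors are held in the membrane of the endoplasmic reticulum by Scap and the Insig proteins while sterols are plentiful. When sterols run low, Scap escorts the precursor to the Golgi apparatus, where proteases release the active factor, which then switches on genes of sterol synthesis and uptake and, in the case of Srebf1 products, genes of fatty acid synthesis. Tubule cells of the kidney both make cholesterol and take it up, and they rely on fatty acids as a fuel.

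RNA was sequenced from established rat kidney lines that shared a culture without touching: NRK-52E, labelled epithelial, on permeable filter inserts, and NRK-49F, fibroblasts, on the bottom of the same wells. All cultures were kept without serum for 24 h and then held for 48 h in medium of pH 7.4, the control, or of pH 6.0, the acidosis group. The 4 groups were NRK-52E at pH 7.4, NRK-52E at pH 6.0, NRK-49F at pH 7.4 and NRK-49F at pH 6.0, with 4 libraries each. Each cell type is represented by a single line, so cell type, cell line, growth surface and compartment cannot be told apart. The labels do not say that the 4 libraries of a group came from separate cultures, so the p-values measure the spread between these libraries, which may be technical. Library totals ran from 16201084 to 34784862 counts, and the pair of libraries in 1 group that were most alike still differed by a chi-square of 6.12 per degree of freedom, above sampling noise. Levels are given in FPM, the fragments of a gene per 1000000 fragments of its library after TMM scaling, and differences as log2 fold changes. Transcript lengths were not used here, so levels are compared between groups and not between genes.

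Cell type markers matched the labels in part. In NRK-52E at pH 7.4, 5 of 12 epithelial markers reached 1 FPM on average, among them Ocln at 41.2 FPM and Cdh1 at 1.62 FPM, while Epcam, Krt18, Cldn1, Cldn4, Cldn7, Cdh16 and Pax8 stayed below 1 FPM. The summed epithelial list ran from 450.03 to 527 FPM across the NRK-52E libraries at pH 7.4 and from 336 to 417 FPM at pH 6.0, and from 788 to 952 FPM and 201 to 222 FPM in NRK-49F, with most of its fragments from Krt8 in every group. Among 9 proximal tubule markers, Lrp2, Slc34a1, Slc5a2 and Hnf4a were below 1 FPM in every group. That list summed to 56.3 to 74.9 FPM at pH 7.4 and 25.9 to 36.9 FPM at pH 6.0 in NRK-52E, and to 142 to 195 FPM and 364 to 560.4 FPM in NRK-49F, most of its fragments from Ggt1. In NRK-52E Aqp1 gave the most fragments of that list by mean and was not called with pH (means of 34.4 and 26.4 FPM), while Anpep fell from a mean of 28.5 to 1.25 FPM. The fibroblast list, with 11 of 12 genes analysed here, summed to 6539.6 to 6825 FPM at pH 7.4 and 1997 to 3421 FPM at pH 6.0 in NRK-52E, most of its fragments from Col3a1, and to 7003 to 8304 FPM and 8196 to 9882 FPM in NRK-49F, most of its fragments from Col1a1. Pdgfra, a fibroblast receptor, was at 392 FPM in NRK-49F and 0.286 FPM in NRK-52E at pH 7.4, whereas Dcn and Thy1 were below 1 FPM in both lines. Col1a1, Pdgfrb, Lum, Postn, Twist1 and Prrx1 were likewise called lower in NRK-52E at pH 7.4. Col3a1 went the other way, at a mean of 6221 FPM in NRK-52E and 458 FPM in NRK-49F. Col5a1 was not called between the lines at pH 7.4 (369 and 341 FPM). In the leukocyte list Cd68 was at 81.2 and 243 FPM in NRK-49F, with Ptprc and Adgre1 below 1 FPM, and both endothelial markers analysed here were below 1 FPM in all groups. These summed levels differ between the pH groups, and their part in the results below was not tested. The cells are therefore called by their line names.

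In NRK-52E, 23 of 35 members were higher at pH 6.0 and 2 were lower, against 28.2% of the 13735 genes tested higher and 28.5% lower. A gene was called when its Benjamini-Hochberg adjusted p was below 0.01 in both edgeR's quasi-likelihood test and DESeq2's Wald test with the same sign; fold changes, standard errors (SE) and printed p-values are those of edgeR. The median log2 fold change was 0.95 over the members and 0.00 over all genes tested. With scaling to library totals 20 members were higher and 3 lower, and these medians were 0.74 and -0.21. Of all called genes, 49.7% were higher in the reported fit and 37.6% with library totals. That scaling thus moved the balance of all genes in NRK-52E, and calls of single members lost under it stand beside that shift. The libraries of the pH values did not overlap for 27 members, while 62.9% of all genes tested had groups that did not overlap. In bulk RNA, fewer cells of a type and less RNA per cell cannot be told apart, and this holds for every level given here.

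In NRK-49F, 34 members were tested, and 6 were higher and 4 lower at pH 6.0, against 18.4% and 19.4% of 13339 genes. The share higher lies near that of all genes and the share lower below it, and the members' median log2 fold change was 0.01 beside 0.00 for all genes. Groups did not overlap for 11 members, and for 48.2% of all genes. Acacb was not tested there because its counts were too low.

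The difference between the lines was tested as an interaction, the pH effect in NRK-52E minus that in NRK-49F. It was called for 20 of 35 members, 16 of them with the more positive effect in NRK-52E and 4 with the more positive effect in NRK-49F, against 19.3% and 17.5% of 14679 genes. The median difference was 0.67 on the log2 scale over the members and -0.01 over all genes. Of the 23 members higher in NRK-52E, 5 were also higher in NRK-49F (Srebf2, Msmo1, Hsd17b7, Sc5d and Stard4), 3 were lower there (Elovl1, Fads2 and Acss2) and 15 were not called there. Of these 15, 10 had a called interaction, while Srebf1, Mvd, Ggps1, Dhcr7 and Fasn did not. Mvk was lower in both lines. Of 8 members called in neither, Acaca and Elovl6 had a called interaction. In NRK-49F 18.4% of all genes tested were higher and 19.4% lower, and the same split over all genes is not given here.

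**Figure D1:**
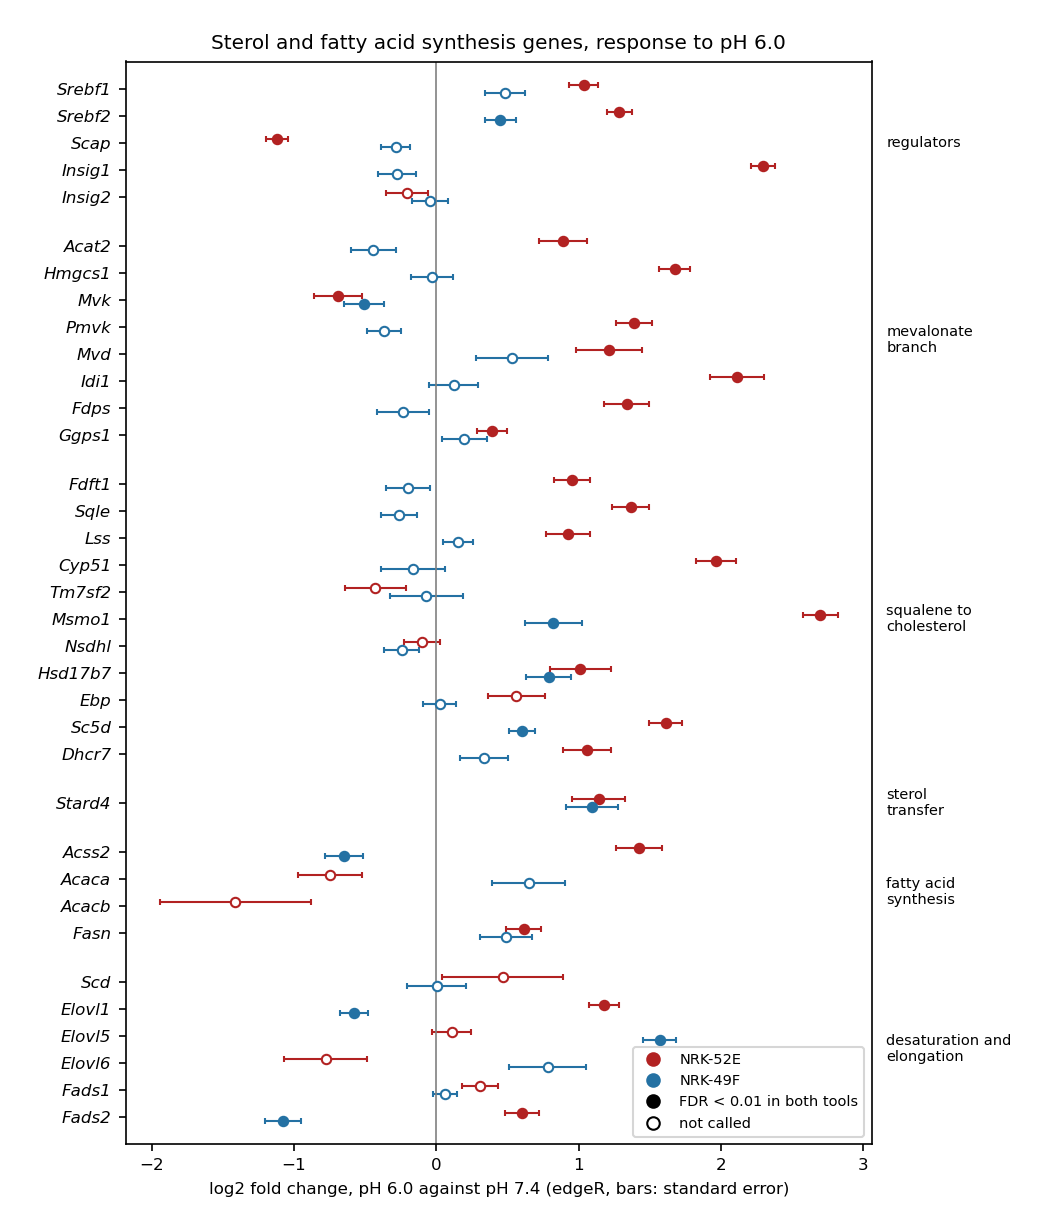
Log2 fold change at pH 6.0 against pH 7.4 (horizontal axis) for each of the 35 members by role, in NRK-52E (red) and NRK-49F (blue), with 4 libraries per group. Bars are edgeR's standard errors, and filled points passed an adjusted p of 0.01 in both tools; 23 filled red points lie right of 0, and 6 filled blue points do.

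The libraries also carry a second number in the table's column headers, 21 or 22 in NRK-52E and 20 or 21 in NRK-49F, with 2 libraries per number at each pH. Its meaning is not given in the sources used here. The lines share only number 21, so line and header number cannot be fully told apart in the interaction or between the lines. In NRK-52E the members' median log2 fold change was 0.57 among the libraries numbered 21, with 15 members higher and 3 lower, against 17.9% and 19.8% of 13903 genes. Among those numbered 22 it was 1.19, with 20 members higher and 1 lower, against 10.3% and 9.93% of 13952 genes. In NRK-49F it was 0.35 among the libraries numbered 20, with 12 members higher and 3 lower, against 17.4% and 17.6% of 13379 genes. Among those numbered 21 it was -0.15, with 1 member higher and 2 lower, against 7.21% and 7.08% of 13861 genes, so that fewer genes of any kind were called there. The medians over all genes in these 4 fits lay between -0.04 and 0.00.

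Many calls of single members did not hold within a header number, where each group has 2 libraries; log2 fold changes there are in parentheses. In NRK-52E the calls lost among the libraries numbered 21 were those of Mvd (0.57), Ggps1 (0.27), Lss (0.51), Hsd17b7 (0.59), Dhcr7 (0.57), Acat2 (0.46), Fasn (0.45) and Fads2 (0.34), while Tm7sf2 came to be called lower (-0.96). Among those numbered 22 they were those of Mvk (-0.39), Ggps1 (0.48), Stard4 (1.08) and Fasn (0.76). In NRK-49F the calls of Mvk (-0.41) and Hsd17b7 (0.73) were lost among the libraries numbered 20, and Srebf1 (0.67), Mvd (1.35), Lss (0.38), Cyp51 (0.54), Tm7sf2 (0.68), Dhcr7 (0.83) and Fasn (0.92) came to be called higher. Among those numbered 21 the calls lost were those of Srebf2 (0.22), Mvk (-0.58), Msmo1 (0.34), Hsd17b7 (0.84), Sc5d (0.55), Stard4 (1.13), Elovl1 (-0.64) and Acss2 (-0.60), and Cyp51 was called lower (-0.85).

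The difference of the pH effect between header numbers was then tested as an interaction within each line, a test chosen after these values were seen. It was called for 0 of 35 members in NRK-52E and for 0 of 34 in NRK-49F, as for 0% of 14378 and 0.00722% of 13859 genes. With edgeR alone the count was 0 in both lines. DESeq2 alone called 0 members in NRK-52E and 3 in NRK-49F, Fdps, Cyp51 and Mvd, all with the more negative effect for number 21 and among 34 genes in all. At an unadjusted p below 0.05 by edgeR there were 13 members in NRK-52E, all more positive for number 22, beside 2.90% of all genes, and 17 in NRK-49F, 15 of them more negative for number 21, beside 10.2% of all genes.

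Summed over the 19 cholesterol synthesis enzymes, the level was 1168, 1067, 874 and 963 FPM in the libraries of NRK-52E at pH 7.4 and 2484, 2591, 3237 and 3058 FPM at pH 6.0. In NRK-49F the sum was 781, 778, 1109 and 992 FPM at pH 7.4 and 1091, 1039.6, 968 and 813 FPM at pH 6.0. The NRK-52E groups are far apart under either header number, whereas in NRK-49F the first 2 libraries, numbered 20, are higher at pH 6.0 and the last 2, numbered 21, are lower. Of these enzymes, 15 were higher and 1 was lower in NRK-52E, with a median log2 fold change of 1.06, beside 28.2% and 28.5% of all genes tested. In NRK-49F 3 were higher and 1 lower, with a median of -0.03, beside 18.4% and 19.4% of all genes, so the share higher lies near that of all genes. The interaction was called for 11 of 19, each with the more positive effect in NRK-52E. Of 14679 genes, 19.3% had the more positive effect in NRK-52E and 17.5% in NRK-49F by that test. The 10 fatty acid enzymes were summed to 632 to 707 FPM at pH 7.4 and 1018 to 1157 FPM at pH 6.0 in NRK-52E. In NRK-49F these sums were 591 to 745 and 668 to 753 FPM. Elovl1 alone gave 30.5% of the NRK-52E sum at pH 7.4 and 42.2% at pH 6.0. In that list 4 enzymes were higher and 0 lower in NRK-52E, where edgeR alone gave 0 lower, DESeq2 alone gave 1, Acaca, and 3 had a negative change at an unadjusted p below 0.05, and 1 of 9 tested was higher and 3 were lower in NRK-49F.

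**Figure D2:**
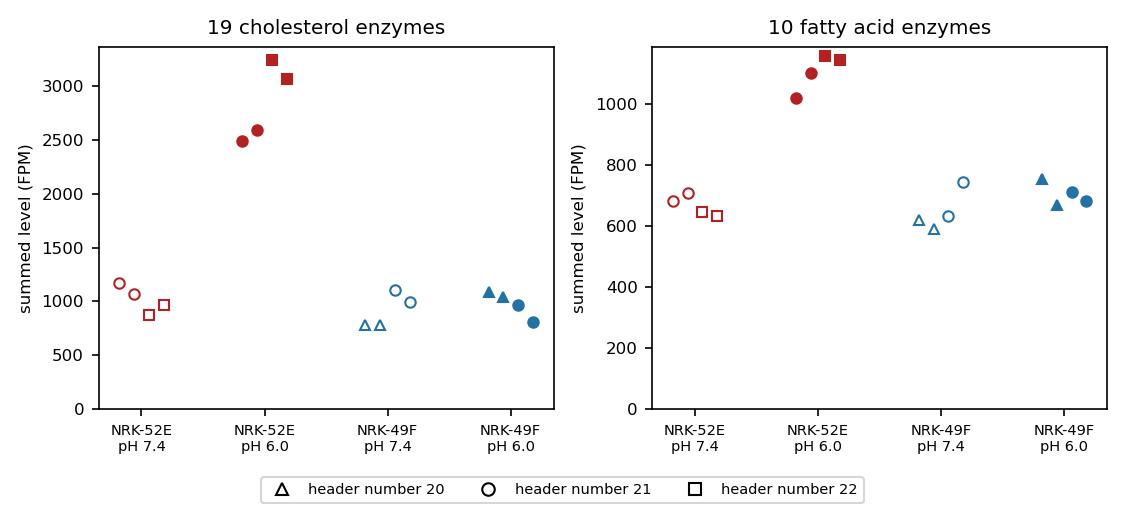
Summed level in FPM (vertical axis) of the 19 cholesterol synthesis enzymes and of the 10 fatty acid enzymes in each library, by cell line and pH; marker shapes give the header number. Every NRK-52E library at pH 6.0 lies above all at pH 7.4 in both panels, from 2484 against at most 1168 FPM for the cholesterol enzymes.

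Of the 5 regulators, 3 rose and 1 fell in NRK-52E, beside 28.2% of all genes tested higher and 28.5% lower. Insig1 encodes a membrane protein that retains Scap and SREBP in the endoplasmic reticulum and is itself an SREBP target. In NRK-52E, Insig1 stood at 174, 172, 168 and 171 FPM at pH 7.4 and 851, 812, 941 and 804 FPM at pH 6.0. In NRK-49F, Insig1 stood at 331, 319.5, 382 and 289 FPM at pH 7.4 and 323, 301, 254 and 225 FPM at pH 6.0. The NRK-52E groups are separate, with every library at pH 6.0 at 804 FPM or more, a 4.97-fold rise of the mean (log2 fold change 2.29, SE 0.08, edgeR adjusted p = 2.97e-08); the NRK-49F groups overlap (log2 fold change -0.28, SE 0.13, edgeR adjusted p = 0.0996). The interaction of 2.56 (SE 0.16, edgeR adjusted p = 1.73e-09) was the largest called among the members. Insig2, its paralog, was not called in either line. NRK-52E libraries had 17.6, 18.3, 15.2 and 14.3 FPM at pH 7.4 and 15.9, 11.6, 15.2 and 14.6 FPM at pH 6.0, and NRK-49F libraries 17.6, 15.97, 15.7 and 17.9 FPM at pH 7.4 and 15.1, 13.9, 17.4 and 19.3 FPM at pH 6.0. These groups overlap in both lines (log2 fold changes -0.21 and -0.04).

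Scap, the escort protein and sterol sensor, went the opposite way to Insig1 in NRK-52E. Its levels in NRK-52E were 93.0, 87.8, 88.6 and 84.3 FPM at pH 7.4 and 40.8, 43.3, 40.5 and 40.3 FPM at pH 6.0. Its levels in NRK-49F were 122, 113, 102 and 145 FPM at pH 7.4 and 103, 91.7, 102 and 103 FPM at pH 6.0. Scap thus fell in NRK-52E with no overlap, the mean at pH 6.0 being 0.466 of that at pH 7.4 (log2 fold change -1.12, SE 0.08, edgeR adjusted p = 6.62e-07), while the NRK-49F groups overlap and were not called (log2 fold change -0.29, SE 0.10, edgeR adjusted p = 0.0356). The interaction was -0.85 (SE 0.14, edgeR adjusted p = 5.31e-05).

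Srebf2, whose product mainly drives cholesterol genes, was higher in both lines. In NRK-52E, Srebf2 was at 263, 257, 258 and 243 FPM at pH 7.4 and 601, 676, 697 and 553 FPM at pH 6.0. In NRK-49F, Srebf2 was at 131, 125, 141 and 146 FPM at pH 7.4 and 215, 194, 184 and 155 FPM at pH 6.0. No library at pH 6.0 fell within the range of those at pH 7.4 in either line, with log2 fold changes of 1.29 (SE 0.09, edgeR adjusted p = 6.34e-07) and 0.45 (SE 0.11, edgeR adjusted p = 0.0045) and an interaction of 0.83 (SE 0.14, edgeR adjusted p = 0.000133). The call in NRK-49F was lost without replicate 9, 10, 11 or 12, where the log2 fold change ran from 0.38 to 0.43. Srebf1 encodes the SREBP isoforms tied to fatty acid genes. Its levels were 83.6, 75.1, 79.3 and 69.4 FPM at pH 7.4 and 167, 171, 171 and 131 FPM at pH 6.0 in NRK-52E. Its NRK-49F libraries had 60.5, 60.4, 63.5 and 96.3 FPM at pH 7.4 and 99.8, 92.1, 110.1 and 94.9 FPM at pH 6.0. It rose in NRK-52E without overlap (log2 fold change 1.04, SE 0.10, edgeR adjusted p = 6.59e-06). In NRK-49F replicate 14 at pH 7.4 lies within the pH 6.0 range, and the gene was not called (log2 fold change 0.48, SE 0.14, edgeR adjusted p = 0.0117); without that replicate it was called, at a log2 fold change of 0.67, as it was with DESeq2 alone, without the filter, in 1 fit of all libraries and with the header number as a covariate (0.50). The interaction of Srebf1 did not pass, at 0.54 (SE 0.19, edgeR adjusted p = 0.0239), but was called without replicate 8 of NRK-52E, at 0.62.

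**Figure D3:**
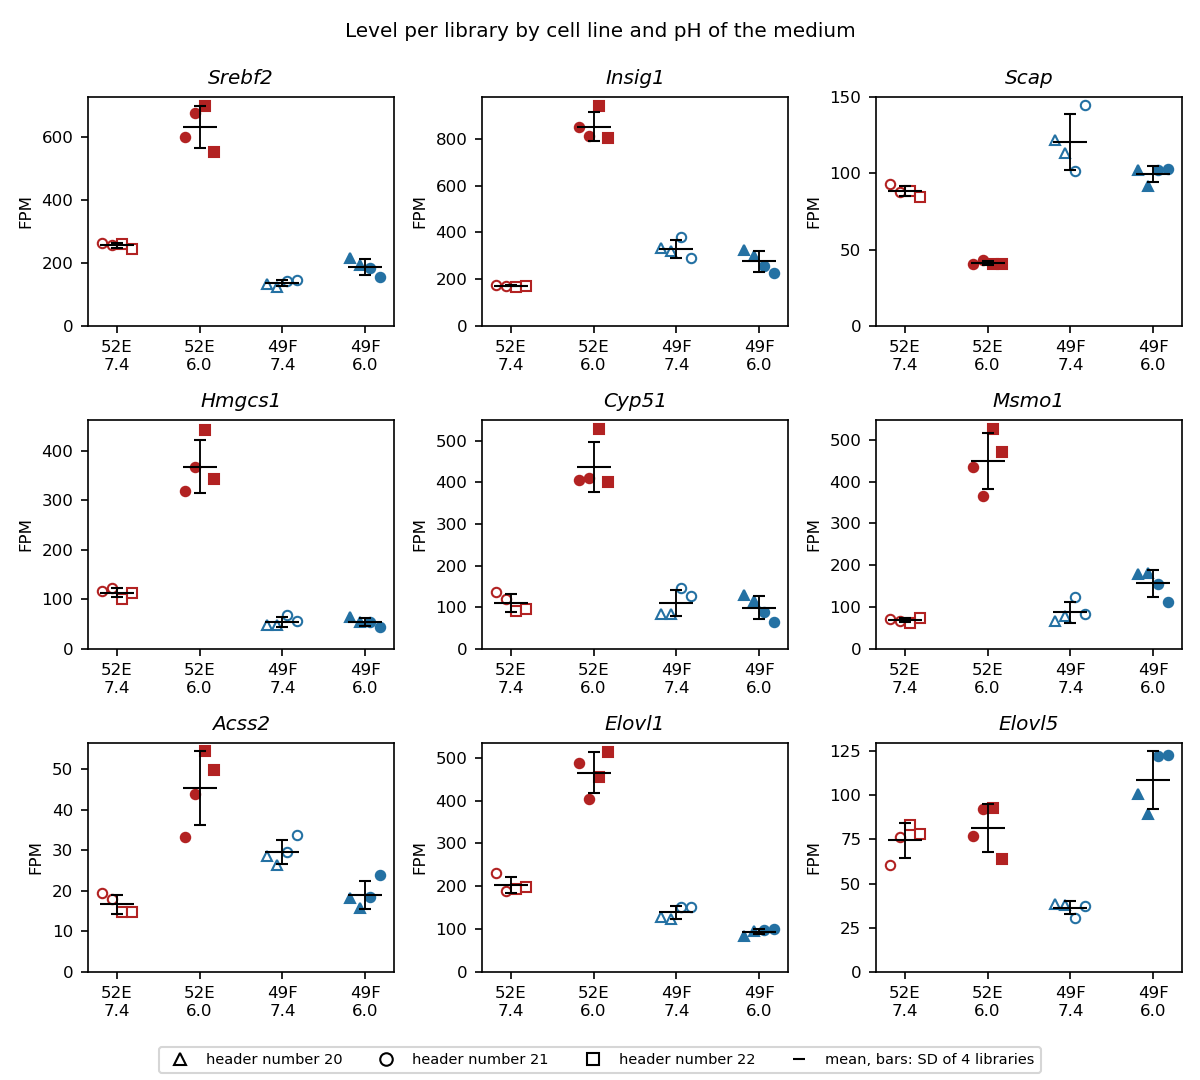
Level in FPM (vertical axes, each from 0) of 9 members in each of the 16 libraries, by cell line and pH; lines and bars are the mean and SD of 4 libraries, and marker shapes give the header number. Insig1 in NRK-52E goes from 168 to 174 FPM at pH 7.4 to 804 to 941 FPM at pH 6.0, while Elovl5 separates the pH groups in NRK-49F and not in NRK-52E.

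The mevalonate branch turns acetyl-CoA into isoprenoid units and farnesyl diphosphate. All 8 members of it were called in NRK-52E, 7 higher and Mvk lower, and 1 of 8, again Mvk, was called in NRK-49F. Of all genes tested, 28.2% were higher and 28.5% lower in NRK-52E, and 18.4% and 19.4% in NRK-49F. Hmgcs1 makes HMG-CoA from acetyl-CoA and acetoacetyl-CoA. Hmgcs1 levels in NRK-52E were 117, 123, 101 and 114 FPM at pH 7.4 and 319.8, 368, 443 and 343 FPM at pH 6.0. Hmgcs1 levels in NRK-49F were 48.0, 47.5, 68.8 and 55.8 FPM at pH 7.4 and 64.6, 54.8, 54.6 and 43.3 FPM at pH 6.0. Each NRK-52E library at pH 6.0 exceeded the highest at pH 7.4, a 3.24-fold rise of the mean (log2 fold change 1.68, SE 0.11, edgeR adjusted p = 4.69e-07), and the NRK-49F groups overlap (log2 fold change -0.03, SE 0.15, edgeR adjusted p = 0.865); the interaction was 1.70 (SE 0.19, edgeR adjusted p = 1.23e-06).

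Idi1, the isomerase that makes dimethylallyl diphosphate, had the largest rise of the branch. Its NRK-52E libraries gave 31.7, 28.6, 19.8 and 20.5 FPM at pH 7.4 and 80.6, 105, 129.8 and 125 FPM at pH 6.0. Its NRK-49F libraries gave 10.97, 11.1, 18.2 and 13.9 FPM at pH 7.4 and 16.9, 13.9, 14.3 and 14.3 FPM at pH 6.0. The NRK-52E groups are apart (log2 fold change 2.11, SE 0.19, edgeR adjusted p = 3.53e-06) and the NRK-49F groups are mixed (log2 fold change 0.12, SE 0.17, edgeR adjusted p = 0.578), with an interaction of 1.97 (SE 0.26, edgeR adjusted p = 7.62e-06). Within header numbers the Idi1 effect in NRK-52E was 1.58 for number 21 and 2.64 for number 22 on the log2 scale. Pmvk, a kinase of the branch, was at 25.6 to 35.3 FPM at pH 7.4 and 69.0 to 93.0 FPM at pH 6.0 in NRK-52E (log2 fold change 1.39). Fdps, which makes farnesyl diphosphate, was at 96.1 to 155 FPM at pH 7.4 and 264 to 379 FPM at pH 6.0 (log2 fold change 1.34). Mvd, the decarboxylase, rose by 1.22 on the log2 scale, but by 0.57 and not called among the libraries numbered 21. Acat2, a thiolase that makes acetoacetyl-CoA, rose by 0.89 on that scale; fragments that fit several near-identical genes could be counted at each, so its level is uncertain. Ggps1, which makes geranylgeranyl diphosphate, rose by 0.39 on the log2 scale in NRK-52E, a call that was lost without replicate 1, 2, 4, 5, 6 or 7 (log2 fold change 0.34 to 0.39), with scaling to library totals (0.19), without the filter on low counts and in 1 fit of all libraries (0.38). The interaction was called for Pmvk (1.74), Fdps (1.56) and Acat2 (1.32) and not for Mvd (0.67) or Ggps1 (0.19). In NRK-49F the branch held 0 higher genes by both tools, by edgeR alone and by DESeq2 alone, and 0 with a positive change at an unadjusted p below 0.05. Of all genes tested there, 18.4% were higher.

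Mvk, mevalonate kinase, was the member lower in both lines. It was at 16.3, 14.01, 11.7 and 12.1 FPM at pH 7.4 and 7.34, 8.14, 7.91 and 10.53 FPM at pH 6.0 in NRK-52E. It was at 20.6, 19.8, 23.1 and 29.0 FPM at pH 7.4 and 15.6, 14.52, 18.8 and 16.7 FPM at pH 6.0 in NRK-49F. Neither pair of groups overlaps, though the ranges nearly touch (log2 fold change -0.69, SE 0.17, edgeR adjusted p = 0.00404, and in NRK-49F log2 fold change -0.51, SE 0.14, edgeR adjusted p = 0.00885). The NRK-52E call was lost without replicate 1, 2, 3 or 7 (log2 fold change -0.68 to -0.60), and the NRK-49F call without any 1 of replicates 9, 11, 12, 13, 14, 15 or 16 (log2 fold change -0.57 to -0.39), with scaling to library totals (-0.47), with the filter of 1 CPM and in 1 fit of all libraries (-0.51).

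The 11 enzymes from squalene to cholesterol gave 8 higher and 0 lower in NRK-52E, while 3 were higher and 0 lower in NRK-49F. These counts stand beside 28.2% of all genes tested higher and 28.5% lower in NRK-52E, and 18.4% and 19.4% in NRK-49F. For lower changes, edgeR alone and DESeq2 alone also gave 0 in each line, and 0 had an unadjusted p below 0.05. Msmo1, a methylsterol oxidase that removes methyl groups at carbon C-4, had the largest rise of all members in NRK-52E. Msmo1 libraries of NRK-52E were at 72.0, 67.2, 61.7 and 72.7 FPM at pH 7.4 and 436, 366, 524 and 471 FPM at pH 6.0. Msmo1 libraries of NRK-49F were at 66.3, 77.6, 124 and 82.2 FPM at pH 7.4 and 179, 181, 154 and 111 FPM at pH 6.0. In NRK-52E the lowest library at pH 6.0 was far above the highest at pH 7.4, a 6.57-fold rise (log2 fold change 2.70, SE 0.12, edgeR adjusted p = 6.97e-08). In NRK-49F the ranges overlap through replicates 13 and 16 (log2 fold change 0.82, SE 0.20, edgeR adjusted p = 0.00439). That call was lost without replicate 9, 10, 11, 12, 14 or 15 (log2 fold change 0.71 to 0.84) and among the libraries numbered 21 (0.34, against 1.32 for number 20). The interaction was 1.86 (SE 0.25, edgeR adjusted p = 7.75e-06).

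Cyp51, lanosterol demethylase, had an interaction of 2.12 (SE 0.29, edgeR adjusted p = 1.18e-05). In NRK-52E it was at 135, 119, 90.3 and 95.7 FPM at pH 7.4 and 406, 410.4, 527 and 401 FPM at pH 6.0. In NRK-49F it was at 84.5, 82.7, 145 and 126 FPM at pH 7.4 and 129, 114, 88.0 and 65.0 FPM at pH 6.0. The NRK-52E groups are separate (log2 fold change 1.97, SE 0.14, edgeR adjusted p = 8.22e-07). The NRK-49F groups overlap (log2 fold change -0.16, SE 0.23, edgeR adjusted p = 0.563), with a log2 fold change of 0.54 among the libraries numbered 20 and -0.85 among those numbered 21, each called on its own. Sqle, squalene epoxidase, which adds oxygen to squalene, gave 82.8, 70.8, 57.8 and 60.7 FPM at pH 7.4 and 152, 174, 209.6 and 175 FPM at pH 6.0 in NRK-52E. Sqle in NRK-49F gave 54.4, 54.5, 78.7 and 67.9 FPM at pH 7.4 and 54.5, 55.3, 54.9 and 50.5 FPM at pH 6.0. It rose in NRK-52E without overlap (log2 fold change 1.37, SE 0.13, edgeR adjusted p = 5.06e-06) and was not called in NRK-49F, where the ranges overlap (log2 fold change -0.26, SE 0.12, edgeR adjusted p = 0.0945); the interaction was 1.61 (SE 0.19, edgeR adjusted p = 1.64e-06).

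Sc5d, which adds a double bond to the sterol ring, rose in both lines, and was at 57.8 to 63.7 FPM at pH 7.4 and 158 to 238 FPM at pH 6.0 in NRK-52E (log2 fold change 1.61). In NRK-49F the Sc5d range was 49.6 to 57.3 FPM at pH 7.4 and 78.3 to 90.1 FPM at pH 6.0 (log2 fold change 0.60). Hsd17b7, a ketosteroid reductase of the same stretch, rose by 1.01 and 0.79 on the log2 scale, with an interaction of 0.21 (SE 0.27, edgeR adjusted p = 0.542) that did not pass. Fdft1, which makes squalene, Lss, which closes the sterol rings, and Dhcr7, which acts late in the pathway, rose in NRK-52E by 0.95, 0.93 and 1.06 on that scale and were not called in NRK-49F (-0.20, 0.15 and 0.34). Their interactions were called for Fdft1 (1.13) and Lss (0.76), the latter lost with scaling to library totals (0.52), and not for Dhcr7 (0.71). Tm7sf2, Nsdhl and Ebp were called in neither line, though Ebp was called higher in NRK-52E in 1 fit of all libraries (0.55). In NRK-52E Tm7sf2, a sterol reductase, was at 25.0 to 35.9 FPM at pH 7.4 and 16.6 to 33.7 FPM at pH 6.0, and without replicate 8 it was called lower, at -0.69. Nsdhl, a sterol dehydrogenase, was at 29.8 to 35.0 FPM at pH 7.4 and 27.2 to 36.3 FPM at pH 6.0, and Ebp, a sterol isomerase, at 17.6 to 25.7 FPM at pH 7.4 and 23.8 to 43.8 FPM at pH 6.0.

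Stard4, a soluble carrier of cholesterol between membranes, was higher in both lines by similar log2 amounts. NRK-52E libraries held 21.6, 29.5, 27.6 and 24.9 FPM at pH 7.4 and 51.7, 67.2, 75.1 and 38.4 FPM at pH 6.0. NRK-49F libraries held 5.94, 6.22, 3.95 and 7.67 FPM at pH 7.4 and 13.4, 12.1, 13.52 and 12.6 FPM at pH 6.0. The pH groups do not overlap in either line (log2 fold change 1.14, SE 0.19, edgeR adjusted p = 0.000297, and in NRK-49F log2 fold change 1.10, SE 0.18, edgeR adjusted p = 0.000331), and the interaction of 0.04 (SE 0.27, edgeR adjusted p = 0.925) did not pass. Between the lines, NRK-52E was higher at both pH values, by 2.11 and 2.15 on the log2 scale.

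In fatty acid synthesis, 2 of 4 members rose in NRK-52E and 1 of 3 tested fell in NRK-49F. Among all genes tested, 28.2% rose in NRK-52E and 19.4% fell in NRK-49F. Acss2 makes acetyl-CoA from acetate. Acss2 was at 19.4, 17.9, 14.7 and 14.8 FPM at pH 7.4 and 33.4, 44.0, 54.5 and 49.9 FPM at pH 6.0 in NRK-52E. Acss2 was at 28.6, 26.4, 29.7 and 33.7 FPM at pH 7.4 and 18.2, 15.7, 18.5 and 23.8 FPM at pH 6.0 in NRK-49F. It rose in NRK-52E and fell in NRK-49F, with separate groups in both (log2 fold change 1.42, SE 0.16, edgeR adjusted p = 1.89e-05, and in NRK-49F log2 fold change -0.65, SE 0.13, edgeR adjusted p = 0.0016). The interaction was 2.06 (SE 0.22, edgeR adjusted p = 6.59e-07). Fasn, fatty acid synthase, gave 167, 199, 163 and 149.7 FPM at pH 7.4 and 217, 301, 296 and 241 FPM at pH 6.0 in NRK-52E. Its NRK-49F libraries had 100.4, 101, 104 and 174 FPM at pH 7.4 and 213, 168, 157 and 141 FPM at pH 6.0. It rose in NRK-52E (log2 fold change 0.61, SE 0.12, edgeR adjusted p = 0.00104), a call that was lost with scaling to library totals (0.41). In NRK-49F replicate 14 at pH 7.4 lies among the pH 6.0 libraries and Fasn was not called (log2 fold change 0.49, SE 0.18, edgeR adjusted p = 0.0373); without that replicate it was called, at 0.72. The interaction of Fasn was 0.11 (SE 0.24, edgeR adjusted p = 0.727) and did not pass.

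Acaca, acetyl-CoA carboxylase and the committed step of the pathway, differed between the lines in its pH effect. Acaca in NRK-52E was at 28.5, 40.4, 35.9 and 34.6 FPM at pH 7.4 and 16.6, 29.7, 25.1 and 13.2 FPM at pH 6.0. Acaca in NRK-49F was at 16.46, 14.1, 5.66 and 17.5 FPM at pH 7.4 and 24.4, 19.6, 19.1 and 22.3 FPM at pH 6.0. The NRK-52E ranges overlap and the NRK-49F ranges do not, but neither change was called (log2 fold change -0.75, SE 0.22, edgeR adjusted p = 0.0122, and in NRK-49F log2 fold change 0.65, SE 0.26, edgeR adjusted p = 0.0496). The interaction was called, at -1.40 (SE 0.38, edgeR adjusted p = 0.00502), and was lost without replicate 2 of NRK-52E or replicate 11 of NRK-49F, at -1.32 and -1.33. In NRK-52E Acaca was called lower without replicate 4 (-0.96), with scaling to library totals (-0.94), without the filter and with DESeq2 alone. Acacb, the mitochondrial carboxylase, had only 0 to 24 counts per library, and its pH change in NRK-52E was not called (log2 fold change -1.41, SE 0.53, edgeR adjusted p = 0.0344). At pH 7.4 it was called higher in NRK-52E than in NRK-49F (log2 fold change 2.36, SE 0.63, edgeR adjusted p = 0.0025). That call was lost without replicate 2, 10 or 14 (log2 difference 2.08 to 2.21). It was also lost with the header number as a covariate within each line, which compares number 21 of NRK-52E with number 20 of NRK-49F.

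Of the 6 members in desaturation and elongation, 2 were higher and 0 lower in NRK-52E, beside 28.2% and 28.5% of all genes tested. There edgeR alone and DESeq2 alone also gave 0 lower, and 1 had a negative change at an unadjusted p below 0.05. In NRK-49F 1 was higher and 2 were lower, beside 18.4% and 19.4%. Elovl1 extends saturated very long chains. Elovl1 stood at 231, 189.5, 194 and 199 FPM at pH 7.4 and 489, 404, 456 and 514 FPM at pH 6.0 in NRK-52E. Elovl1 stood at 128, 123, 153 and 151 FPM at pH 7.4 and 84.7, 94.8, 96.8 and 100.3 FPM at pH 6.0 in NRK-49F. The groups are separate in both lines, upward in NRK-52E (log2 fold change 1.18, SE 0.11, edgeR adjusted p = 3.89e-06) and downward in NRK-49F (log2 fold change -0.58, SE 0.10, edgeR adjusted p = 0.00042), with an interaction of 1.74 (SE 0.15, edgeR adjusted p = 4.14e-08). Fads2 encodes the delta-6 desaturase of polyunsaturated fatty acids. Fads2 gave 67.2, 73.0, 59.3 and 60.1 FPM at pH 7.4 and 78.2, 105, 116 and 101 FPM at pH 6.0 in NRK-52E. Its NRK-49F libraries had 69.3, 62.6, 54.0 and 69.5 FPM at pH 7.4 and 35.9, 28.6, 32.4 and 25.4 FPM at pH 6.0. Fads2 too rose in NRK-52E (log2 fold change 0.60, SE 0.12, edgeR adjusted p = 0.0011) and fell in NRK-49F (log2 fold change -1.08, SE 0.12, edgeR adjusted p = 2.1e-05), without overlap in either. The NRK-52E call was lost with scaling to library totals (0.40), and the interaction was 1.67 (SE 0.18, edgeR adjusted p = 9.27e-07).

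Elovl5, which extends polyunsaturated chains, was called in NRK-49F and not in NRK-52E. Its libraries were at 60.3, 76.4, 82.9 and 78.0 FPM at pH 7.4 and 77.1, 92.2, 92.8 and 64.1 FPM at pH 6.0 in NRK-52E. Its libraries were at 38.6, 38.0, 30.7 and 37.4 FPM at pH 7.4 and 101, 89.5, 122 and 123 FPM at pH 6.0 in NRK-49F. The NRK-52E groups overlap (log2 fold change 0.11, SE 0.14, edgeR adjusted p = 0.495), and the NRK-49F groups are far apart, all 4 libraries being higher at pH 6.0 (log2 fold change 1.57, SE 0.12, edgeR adjusted p = 8.18e-07). The interaction was -1.47 (SE 0.19, edgeR adjusted p = 6.37e-06). Elovl6, which extends palmitate, had 15 to 164 counts per library and was called in neither line (log2 fold changes -0.78 and 0.78). Its interaction was called, at -1.57 (SE 0.40, edgeR adjusted p = 0.00352), and was lost without replicate 2 of NRK-52E, at -1.45. Fads1, the delta-5 desaturase, was not called in either line, with NRK-52E libraries at 91.7 to 105 FPM at pH 7.4 and 105 to 155 FPM at pH 6.0 (log2 fold change 0.30) and NRK-49F libraries at 208 to 236 FPM at pH 7.4 and 227 to 249 FPM at pH 6.0 (log2 fold change 0.06).

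Scd, a stearoyl-CoA desaturase, differed between the lines far more than with pH. NRK-52E showed 1.87, 2.05, 0.622 and 1.33 FPM at pH 7.4 and 1.28, 3.78, 1.68 and 1.46 FPM at pH 6.0 of Scd. NRK-49F showed 12.9, 14.1, 21.3 and 23.0 FPM at pH 7.4 and 23.4, 17.2, 17.5 and 14.3 FPM at pH 6.0 of Scd. The pH groups overlap in both lines (log2 fold changes 0.47 and 0.00, not called), and the lines do not overlap, with NRK-52E lower by a log2 difference of -3.60 at pH 7.4 (SE 0.35, edgeR adjusted p = 3.4e-08) and -3.15 at pH 6.0. Reads shared with its paralogs could be counted under several of them, so this level is uncertain.

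Between the lines at pH 7.4, 11 members were higher and 7 lower in NRK-52E than in NRK-49F, against 27.9% and 31.9% of 14679 genes. Of the called members, 61.1% were thus higher. With the header number as a covariate within each line the counts were 9 and 6. That fit compares the lines at the lower number of each, 21 in NRK-52E and 20 in NRK-49F. It therefore does not adjust the difference between lines for the number. Scaled to library totals the counts were 19 and 4, or 82.6% higher, while the median of all genes moved to 0.34 on the log2 scale. Of all called genes, 46.7% were higher in the reported fit and 65.9% with library totals. The scaling thus moved the balance of all genes as well, and its shift is not particular to the members. At pH 6.0, 20 members were higher and 5 lower in NRK-52E, against 30.7% and 32.2% of all genes, with a members' median of 0.79. Idi1 and Hmgcs1 differed most in that direction at pH 6.0, by 2.87 and 2.74 on the log2 scale, beside 0.90 and 1.05 at pH 7.4. Insig1 was lower in NRK-52E at pH 7.4 (-0.95) and higher at pH 6.0 (1.61). Acss2 was on opposite sides in the same way, with -0.83 (a call lost with scaling to library totals) and 1.23, as was Pmvk with -0.95 and 0.79.

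Promoter sequences were taken from RefSeq on build GRCr8, while the counts are on rn6; they span 250 bases before to 50 bases after the gene start. By name, 28 of 35 members matched by symbol; Pmvk, Fdft1, Sqle, Stard4, Acaca, Fasn and Elovl6 did not. The windows were searched on both strands for TCACNCCAC, a core of the sterol regulatory element, for CCAAT, the NF-Y box, and for GGGCGG, the Sp1 box. CCAAT was found in 21 of the 28 members, and in 37.5% of all 33469 promoters in the table. GGGCGG was found in 20 of the 28, and in 33.1% of all promoters. TCACNCCAC was found in 0 of the 28, and in 1.12% of all promoters. At so low a share, 0 of 28 does not set the members apart from other genes. Other forms of the sterol regulatory element were not searched for, so their presence was not tested. Among the 18 matched members that rose in NRK-52E, 13 had CCAAT and 15 had GGGCGG, and among the other 10 these numbers were 8 and 5.

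Shown are the windows of the 3 matched members with the largest rise in NRK-52E, Msmo1 (chr16:29746863-29747162 on the plus strand), Insig1 (chr4:8057720-8058019 on the minus strand) and Idi1 (chr17:66547475-66547774 on the minus strand), since these genes all rose there, and of 2 members not called there, Nsdhl (chrX:155817110-155817409 on the plus strand) and Elovl5 (chr8:87670914-87671213 on the plus strand), taken for the smallest change after values were seen. They read 5′ to 3′ on the strand of the gene, and capitals mark CCAAT or GGGCGG on either strand, which do not overlap in these windows. Msmo1 has 3 matches of CCAAT and 3 of GGGCGG, Insig1 1 and 1, and Idi1 2 and 0, while Nsdhl has 5 and 0 and Elovl5 2 and 0.
Msmo1: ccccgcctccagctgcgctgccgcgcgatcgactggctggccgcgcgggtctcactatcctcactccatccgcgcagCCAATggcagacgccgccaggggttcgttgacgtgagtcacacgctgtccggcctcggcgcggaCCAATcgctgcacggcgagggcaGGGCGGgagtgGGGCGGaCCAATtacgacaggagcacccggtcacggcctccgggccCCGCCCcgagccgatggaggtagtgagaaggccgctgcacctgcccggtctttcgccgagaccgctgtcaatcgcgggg
Insig1: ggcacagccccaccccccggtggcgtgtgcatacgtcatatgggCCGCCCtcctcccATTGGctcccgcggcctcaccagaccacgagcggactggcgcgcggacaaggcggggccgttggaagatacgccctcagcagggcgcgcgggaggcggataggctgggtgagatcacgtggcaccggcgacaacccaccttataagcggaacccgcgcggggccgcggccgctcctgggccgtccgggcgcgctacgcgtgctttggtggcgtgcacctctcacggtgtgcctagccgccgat
Idi1: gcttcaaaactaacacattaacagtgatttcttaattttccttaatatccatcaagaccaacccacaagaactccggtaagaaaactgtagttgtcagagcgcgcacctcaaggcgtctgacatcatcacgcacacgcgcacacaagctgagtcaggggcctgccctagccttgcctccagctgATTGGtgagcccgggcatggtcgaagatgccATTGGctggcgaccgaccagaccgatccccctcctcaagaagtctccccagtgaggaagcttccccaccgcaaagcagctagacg
Nsdhl: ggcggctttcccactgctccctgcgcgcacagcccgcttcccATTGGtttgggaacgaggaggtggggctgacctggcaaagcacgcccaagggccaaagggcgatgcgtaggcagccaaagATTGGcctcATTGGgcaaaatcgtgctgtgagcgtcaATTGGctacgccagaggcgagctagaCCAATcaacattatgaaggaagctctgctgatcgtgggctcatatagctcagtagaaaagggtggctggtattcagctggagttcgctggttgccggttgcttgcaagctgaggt
Elovl5: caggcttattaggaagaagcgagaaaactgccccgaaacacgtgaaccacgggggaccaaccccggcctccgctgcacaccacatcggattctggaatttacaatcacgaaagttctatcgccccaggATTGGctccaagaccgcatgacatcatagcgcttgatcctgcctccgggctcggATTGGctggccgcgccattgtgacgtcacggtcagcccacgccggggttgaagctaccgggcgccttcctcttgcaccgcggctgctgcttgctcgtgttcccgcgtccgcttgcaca

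Other genes of the pathway were taken from lists by function, with log2 fold changes in parentheses. Their counts stand beside 28.2% of all genes tested higher and 28.5% lower in NRK-52E, and 18.4% and 19.4% in NRK-49F, and many of the counts lie near these shares. Among 13 genes that handle SREBP and its regulators, 6 were higher and 4 lower in NRK-52E, and 6 and 3 in NRK-49F. Sec24a, a coat protein of vesicles leaving the endoplasmic reticulum, had the largest rise in both (1.96 and 1.59), and the largest falls were those of Ubxn8 in NRK-52E (-1.21) and Rnf139 in NRK-49F (-0.70), both parts of degradation at the endoplasmic reticulum. Of 9 genes of lipoprotein uptake and lysosomal exit of cholesterol, 3 were higher and 3 lower in NRK-52E, and 4 and 0 in NRK-49F, where edgeR alone and DESeq2 alone also gave 0 lower and 2 had a negative change at an unadjusted p below 0.05. Lrp8, a lipoprotein receptor, led the rises (3.34 and 2.78), and Mylip, a ubiquitin ligase, had the largest fall in NRK-52E (-1.58) at 2 to 17 counts per library.

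Sterol efflux genes and LXR targets, 6 of them tested, gave 2 higher and 1 lower, again Mylip, in NRK-52E, and 0 and 2 in NRK-49F, where edgeR alone and DESeq2 alone also gave 0 higher and 0 had a positive change at an unadjusted p below 0.05. Apoe, a lipid carrier, rose in NRK-52E and fell in NRK-49F (1.72 and -1.19), and its interaction was 2.90 (SE 0.17, edgeR adjusted p = 6.53e-10). Of 5 tested genes for sterol esters and oxysterols in each line, 3 were lower in NRK-52E and 2 in NRK-49F; Ch25h, which makes 25-hydroxycholesterol, had the largest fall in both (-3.15 and -1.49), with at most 21 counts per library in NRK-52E. In sterol transfer, with counts near the shares of all genes in both lines, 3 were higher and 2 lower of 10 in NRK-52E, led by Osbpl2 (1.05) and Gramd1c (-2.75), and 2 and 2 in NRK-49F, led by Osbpl8 (2.72) and Osbpl5 (-0.84). The 10 genes of isoprenoid branches gave 5 higher and 1 lower in NRK-52E, led by Nus1 (0.76) and Dhdds (-2.32), which together form the enzyme that starts dolichol. They gave 1 and 2 in NRK-49F, led by Icmt (0.64) and Fntb (-1.67), which act in the prenylation of proteins and their later processing. Beside the counts of these lists, 28.2% of all genes tested were higher and 28.5% lower in NRK-52E, and 18.4% and 19.4% in NRK-49F.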

How the data were processed

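The deposited table holds gene counts for 16 libraries, which the authors made by aligning paired reads to the rat genome rn6 and counting fragments per gene with featureCounts; GEO's notes name HISAT2 2.1.0 as the aligner and the paper names another. The counts were used unchanged. Differences were fitted over all genes in R 4.3.3 with edgeR 4.0.16 (TMM scaling, filterByExpr, quasi-likelihood F-test) and DESeq2 1.42.0 (Wald test), each adjusted by Benjamini-Hochberg, with a fit of the 8 libraries of a line for each pH effect and a fit of all 16 for the interaction and the comparisons of lines. The scripts were tested on simulated data. Levels in FPM used TMM factors over all 16 libraries. The members and lists were chosen with earlier results of these data known. Values per library are given for the regulators, Hmgcs1, Sqle, Stard4, Acaca, Fasn and Scd, for the called member with the largest rise and fall in each role and line, and for the 3 largest called interactions; in each other list the largest called rise and fall are named. Alternatives were DESeq2's size factors, library totals, no filter, a filter of 1 CPM in at least 4 libraries, the header number as a covariate, each header number alone, 1 fit of all libraries, each tool alone, an adjusted p below 0.05 and each library left out. The test of header numbers was chosen after seeing the data. Of 87 genes on the other lists, 86 were analysed here. Some further genes of the pathway are not reported here.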

Additional observations from a re-analysis of the deposited data

Results flagged for a closer look

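In 11 of 140 groups of 4 levels, 1 library lay far from the other 3 by Dixon's test; chance flags about 1 in 20 groups, or about 7 here. In NRK-52E at pH 6.0 these were Srebf1 in replicate 8 (131 FPM, others 167 to 171), Scap in replicate 4 (43.3 FPM, others 40.3 to 40.8), Scd in replicate 4 (3.78 FPM, others 1.28 to 1.68) and Cyp51 in replicate 7 (527 FPM, others 401 to 410.4). In NRK-49F at pH 7.4 they were Srebf1 and Fasn, both in replicate 14 (96.3 FPM, others 60.4 to 63.5; and 174 FPM, others 100.4 to 104), and Elovl5 in replicate 13 (30.7 FPM, others 37.4 to 38.6). In NRK-49F at pH 6.0 they were Idi1 and Lss, both in replicate 11 (16.9 FPM, others 13.9 to 14.3; and 107 FPM, others 90.01 to 91.5), Scap in replicate 12 (91.7 FPM, others 102 to 103) and Sqle in replicate 16 (50.5 FPM, others 54.5 to 55.3).

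The pH effect differed between the lines, by the interaction test, for 20 members. The difference, NRK-52E minus NRK-49F on the log2 scale, was 0.83 for Srebf2, -0.85 for Scap and 2.56 for Insig1 among the regulators. In the mevalonate branch it was 1.70 for Hmgcs1, 1.74 for Pmvk, 1.97 for Idi1, 1.56 for Fdps and 1.32 for Acat2. From squalene to cholesterol it was 1.13 for Fdft1, 1.61 for Sqle, 0.76 for Lss, 2.12 for Cyp51, 1.86 for Msmo1 and 0.999 for Sc5d. Among the fatty acid enzymes it was -1.40 for Acaca, 1.74 for Elovl1, -1.47 for Elovl5, -1.57 for Elovl6, 1.67 for Fads2 and 2.06 for Acss2.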

How the results depend on the processing

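Of the members' log2 fold changes under settings other than leaving out a library, 952 kept direction and side of the threshold, 28 came to pass it, 31 no longer passed it and 26 changed sign; with 1 library left out these were 1057, 5, 30 and 20. Of the sign changes, only Cyp51 (0.54) and Tm7sf2 (0.68), in NRK-49F among the libraries numbered 20, were called in that setting, and none was called in the fit reported. In NRK-49F the others were Hmgcs1 (0.33), Fdps (0.30), Ggps1 (-0.13), Fdft1 (0.22) and Sqle (0.0163) among the libraries numbered 20, Insig2 (0.11), Mvd (-0.13), Idi1 (-0.18), Lss (-0.0514), Ebp (-0.12), Dhcr7 (-0.11), Scd (-0.50) and Fads1 (-0.0137) among those numbered 21, and Hmgcs1 (0.0178) with library totals. In NRK-52E they were Tm7sf2 (0.0167), Nsdhl (0.14) and Elovl5 (-0.0600) among the libraries numbered 22 and Elovl5 (-0.10) with library totals. For the interaction, with library totals, they were Ggps1 (-0.0497), Nsdhl (-0.12), Hsd17b7 (-0.0251), Stard4 (-0.19), Fasn (-0.12) and Fads1 (-0.0110). With 1 library left out, values of both signs came from Insig2 (-0.13 to 0.0195), Hmgcs1 (-0.13 to 0.10), Cyp51 (-0.32 to 0.0096), Tm7sf2 (-0.23 to 0.11), Ebp (-0.0553 to 0.0812) and Scd (-0.14 to 0.15) in NRK-49F, from Scd (-0.0137 to 0.67) in NRK-52E, and for the interaction from Stard4 (-0.11 to 0.20), Fasn (-0.13 to 0.24) and Scd (-0.0128 to 0.66). Counts moved as follows, and the cause was not tested. In NRK-52E, 15 members were higher among the libraries numbered 21; 5 were lower at an adjusted p below 0.05, 1 among the libraries numbered 22, and 1 to 3 with 1 library left out. In NRK-49F, 10 were higher at an adjusted p below 0.05, 1 among the libraries numbered 21 and 12 among those numbered 20, and 7 and 2 were lower in the first and second of these settings. The interaction had 2 to 4 members with the more positive effect in NRK-49F with 1 library left out. Between the lines at pH 7.4, 19 were higher and 4 lower in NRK-52E with library totals. The difference between header numbers in NRK-49F was more negative for number 21 in 3 members with DESeq2 alone and in 3 without the filter, and in 0 to 1 with 1 library left out. Depth, lowest in replicate 12 of NRK-49F at pH 6.0, limits genes with few counts such as Acacb, Elovl6, Ch25h and Mylip. No paired analysis was possible because the replicate numbers do not repeat across the groups. The lines shared wells, but the labels do not say which NRK-52E and NRK-49F libraries came from the same culture. The interaction and the comparisons of lines therefore treat all libraries as independent. The header numbers do repeat between the pH groups of a line. As a covariate they changed no member's call for a pH effect or the interaction, other than that of Srebf1 in NRK-49F, which came to pass. The numbers are balanced over pH, so such a covariate can hardly move a pH effect. It does not test whether the pH effect differs between numbers.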

Other observations

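Genes that supply acetyl-CoA and NADPH for lipid synthesis were higher in 4 of 5 tested in NRK-52E and in 1 of 5 in NRK-49F. The counts here stand beside 28.2% of all genes tested higher and 28.5% lower in NRK-52E, and 18.4% and 19.4% in NRK-49F. Me1, the malic enzyme of the cytosol, had the largest rise in both lines. It was at 30.6 to 37.3 FPM at pH 7.4 and 107 to 125 FPM at pH 6.0 in NRK-52E, while NRK-49F libraries had 41.6 to 46.9 FPM at pH 7.4 and 70.7 to 83.0 FPM at pH 6.0. The groups do not overlap in either line (log2 fold change 1.75, SE 0.09, edgeR adjusted p = 1.3e-07, and in NRK-49F log2 fold change 0.77, SE 0.09, edgeR adjusted p = 1.73e-05), with an interaction of 0.96 (SE 0.12, edgeR adjusted p = 5.39e-06). Of the other elongation, desaturation and acyl-CoA genes, 9 were higher and 3 lower of 13 tested in NRK-52E, and 4 and 1 of 12 in NRK-49F. Acsl5, an acyl-CoA synthetase, had the largest rise in NRK-52E (log2 fold change 1.42), and Elovl7, an elongase, had the largest fall (-4.06), being at 7.96 to 11.8 FPM at pH 7.4 and 0.282 to 0.984 FPM at pH 6.0; Elovl7 had 0 counts in all NRK-49F libraries. In NRK-49F the largest rise was that of Acsl1 (0.95) and the fall that of Fads3 (-1.95).

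Glycerolipid synthesis had 3 of 6 genes higher and 0 lower in NRK-52E, led by Lpin1, a phosphatidate phosphatase (1.43); edgeR alone and DESeq2 alone also gave 0 lower, and 0 had a negative change at an unadjusted p below 0.05. In NRK-49F 3 of 6 were higher, led by Gpam, which starts the pathway (1.03), and Agpat2 was lower (-0.42). The shares of all genes tested were 28.2% higher and 28.5% lower in NRK-52E, and 18.4% and 19.4% in NRK-49F.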
